A study of Homo sapiens with 3 samples.

Results

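Coenzyme A is the carrier on which cells move acyl groups, and liver cells need it for fatty acid oxidation, lipid synthesis and bile acid conjugation. It is built from the vitamin pantothenate, which pantothenate kinases phosphorylate in the step that sets the pace. PPCS then adds cysteine, PPCDC removes a carboxyl group, and COASY carries out the closing reactions. Pantetheinases (vanins) act on the breakdown side: they split pantetheine into pantothenate, which can be used again, and cysteamine, an aminothiol.

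The 10 genes described here are the pantetheinases VNN1, VNN2 and VNN3, the pantothenate kinases PANK1 to PANK4, and PPCS, PPCDC and COASY. They were picked by name out of 18417 genes on the arrays, and every probe set that carries exactly 1 gene symbol was taken. All 10 were found, on 11 probe sets, PANK2 having 2. VNN3 is listed as VNN3P, and RefSeq annotates it as a transcribed pseudogene. The list was selected on the log2 values of all 3 arrays, with the VNN1 difference known, so every value is a description.

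The arrays compared HepG2 cells, a human hepatoma line, after 3 treatments: graphene oxide (GO), reduced graphene oxide (rGO), which carries fewer oxygen groups, and none (control). Exposure lasted 24 h, each material at its own EC20, the dose tied to a 20% effect in viability assays. No concentration is stated for either material, and the amounts used may not be equal. With 1 Affymetrix array per group no spread between replicates exists and no test was possible.

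The deposited log2 values had medians of 6.63 (GO), 6.66 (rGO) and 6.65 (control). A gene passed the level filter if its mean over the 3 arrays reached log2 6.66, the 40th percentile of genes, which 11050 genes did. Among them the robust SD of the differences, a scaled median absolute deviation, was 0.244 when GO was set against the control, 0.116 when rGO was, and 0.218 for GO against rGO. The gap between the 2 brightest probe sets of a gene was divided by the square root of 2 to give a spread per probe set. Its robust SD, here called the probe set SD, was 0.0804, 0.0539 and 0.067 in these comparisons (365 genes). The robust SDs over all genes past the filter mix any effect of the material with variation between dishes. All 8 measured hepatocyte and hepatoma markers passed the filter, ALB standing at 13.49 (GO), 13.57 (rGO) and 13.50 (control). With GO they went both ways, 5 above 0 and 3 below, with TTR at 0.70 and FGB at -0.85 as the extremes. With rGO they ran from -0.10 to 0.16. Of 9 measured leukocyte and neutrophil markers 3 passed (LYZ, CD68 and CSF3R), while the defining PTPRC stood at 3.56, 3.76 and 3.65. Of 8 fibroblast and endothelial markers 2 passed (COL1A1 and PDGFRB).

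PANK1, PANK2 and PANK3 each house a microRNA gene, MIR107, MIR103A2 and MIR103A1. The RefSeq spans of the hosts on GRCh38.p14 contain all 3 hairpins. The sequences are shown because the arrays carried probe sets for the hairpins, which gave readings inside the same loci as the kinases. In the mature microRNAs, written 5′ to 3′, capitals mark the seed, bases 2 to 8:
miR-107: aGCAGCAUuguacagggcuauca
miR-103a-3p: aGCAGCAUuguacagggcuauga
Both are 23 bases long and share the seed. Counted from the 5′ end of miR-103a-3p, the only change to miR-107 is G22C. In the hairpins, capitals mark the mature arm:
MIR107 (chr10:89592747-89592827, minus strand, in PANK1): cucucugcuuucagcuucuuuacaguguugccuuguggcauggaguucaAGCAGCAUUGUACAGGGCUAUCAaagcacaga
MIR103A2 (chr20:3917494-3917571, plus strand, in PANK2): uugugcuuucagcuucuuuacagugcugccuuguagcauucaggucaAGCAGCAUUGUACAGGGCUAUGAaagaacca
MIR103A1 (chr5:168560896-168560973, minus strand, in PANK3): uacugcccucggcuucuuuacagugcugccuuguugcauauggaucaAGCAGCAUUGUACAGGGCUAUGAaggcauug

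The pantetheinases were the first group compared, and VNN1 differed more between arrays than any other member. VNN1 encodes the membrane-anchored pantetheinase of liver, gut and kidney, and in liver it is known as a target of the lipid-sensing nuclear receptor PPAR-alpha. Its log2 value was 8.04 with GO, 6.63 with rGO and 7.06 in the control. The GO array was thus the high one, and the rGO array lay under the control and just under the filter level. In bulk RNA, more cells with VNN1 transcript and more transcript per cell cannot be told apart.

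In the GO array VNN1 was 1.97-fold higher than in the control, a log2 difference of 0.98. It was the only one of the 8 members past the filter that reached a 1.5-fold difference in either direction, which 1.91% of all genes reached upwards and 4.23% downwards. No member reached 2-fold, against 0.253% of genes higher and 0.914% lower. Of the 11050 genes, 31 stood higher than VNN1. The distance to 2-fold was within the choice of scaling: with each array centred on its median the log2 difference was 1.003, just past 2-fold.

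In the rGO array VNN1 was 1.35-fold lower than in the control, a log2 difference of -0.43. Only 58 of the 11050 genes had a lower value in this comparison, in which differences were narrow overall. The 8 members past the filter included 0 at 1.5-fold, against 0.0271% of all genes higher and 0.127% lower, and 0 at 2-fold, against 0% higher and 0.0181% lower. Since the rGO value of 6.63 sat at the level where background can hide signal, the size of this difference can be understated. In this comparison alone, genes under the filter spread more, with a robust SD of 0.165 against 0.116 past it. VNN1 passed the filter on its mean, so that spread is not its own. From single arrays, the size can be overstated as well.

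Set directly side by side, GO and rGO gave log2 values of VNN1 that differed by 1.41, or 2.66-fold. Only 4 genes stood higher in GO minus rGO, and VNN1 was the single member at or past 2-fold, as were 0.262% of all genes in the upward direction and 0.534% in the downward one. At 1.5-fold it was again the single member, where 1.82% of genes were higher and 3.2% lower. The doses behind this difference may not match. VNN1 was read by 1 probe set, so no other probe set on the arrays checks it. Among markers of other cell types past the filter, 2 had the same order of arrays. The pericyte and fibroblast gene PDGFRB read 7.30 with GO, 6.57 with rGO and 6.97 in the control, and the macrophage gene CD68 read 9.98, 9.51 and 9.61. The 8 fibroblast and endothelial markers together had median levels of 5.61, 5.60 and 5.71, with COL1A1 at -0.07 and -0.17 and the defining VWF, PECAM1, CDH5, LUM and DCN all under the filter. The 9 leukocyte and neutrophil markers had medians of 5.78, 5.81 and 5.95, with LYZ at 0.20 and 0.15, CSF3R at -0.06 and -0.0043 and the other 6 under the filter. All cultures were of the hepatoma line HepG2, and LYZ, listed here as a leukocyte gene, read 13.43, 13.38 and 13.23. The part of other cells in the VNN1 values was not tested.

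**Figure D1:**
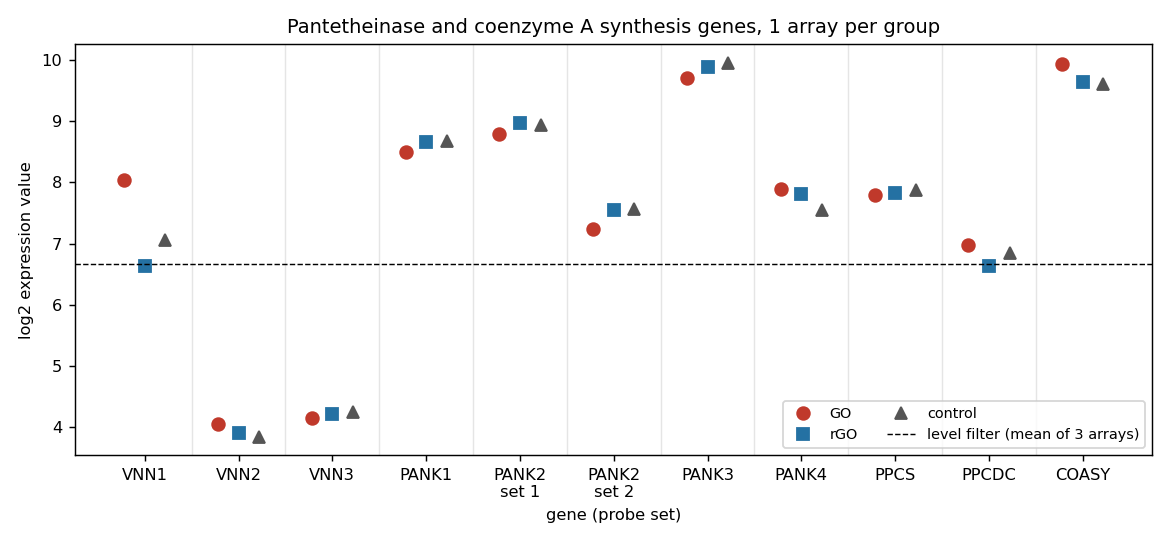
Log2 expression value (vertical axis) of each probe set of the 10 genes (horizontal axis) in the GO array (red circles), the rGO array (blue squares) and the control array (grey triangles), 1 array each; the dashed line is the filter level of 6.66 on the mean of the 3 arrays. VNN1 is spread from 6.63 to 8.04, VNN2 and VNN3 lie far under the line in all arrays, and the other genes show small offsets.

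VNN2 and VNN3 did not pass the filter. VNN2, known as a surface protein of neutrophils (GPI-80), read 4.06 with GO, 3.92 with rGO and 3.85 in the control. VNN3 read 4.15, 4.23 and 4.25 in the same order. At these levels a probe set may hold background alone, so their differences from control (0.21 and 0.07 for VNN2, -0.10 and -0.03 for VNN3, GO and then rGO) carry no direction. Expression of either gene was not detectable here at the precision of these arrays, and VNN1 was the only pantetheinase with a readable signal.

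The 3 vanin genes lie next to each other on chromosome 6, so the genes around them were read as well. Among the 5 measured genes to either side, ordered as in RefSeq, only SLC18B1, a vesicular polyamine transporter, passed the filter. SLC18B1 stood at 7.33 with GO, 7.40 with rGO and 7.34 in the control, differences of -0.01 and 0.06. The other neighbours, which include 5 genes or pseudogenes of trace amine receptors, lay under the filter. Over all 10 the differences ran between -0.41 (LINC00326) and 0.17 for GO and between -0.08 and 0.17 for rGO. The offsets of VNN1 were outside both ranges, but VNN1 was chosen with its difference known. Neighbours under the filter may hold background alone, so SLC18B1 was the only neighbour with a readable signal to set beside it.

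**Figure D2:**
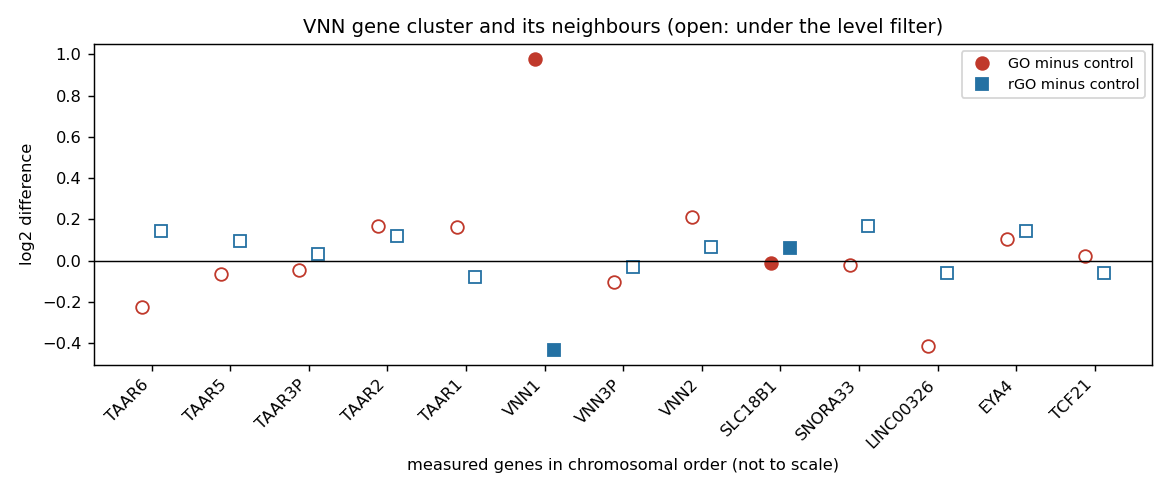
Log2 difference from the control array (vertical axis) of the VNN genes and the 5 measured genes on each side, in chromosomal order and not to scale (horizontal axis), for GO (red circles) and rGO (blue squares); open symbols lie under the level filter. VNN1 stands at 0.98 and -0.43. Its neighbours, all but SLC18B1 under the filter, lie between -0.41 and 0.17.

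Genes with the pattern most like that of VNN1 were found by the Euclidean distance between pairs of differences from control, over 2 differences that share the control array. The 5 nearest were FSTL3, a secreted binder of activin, CD109, a membrane-anchored glycoprotein, the tight junction gene CLDN6, the matricellular gene CCN1 and the small nucleolar RNA SNORD82. FSTL3 stood at 9.84 (GO), 8.32 (rGO) and 8.66 (control), differences of 1.18 and -0.34 at a distance of 0.221. CD109 stood at 7.70, 6.58 and 6.96, differences of 0.74 and -0.38 at a distance of 0.248. The other 3 had distances from 0.275 (CLDN6) upwards and rGO differences of -0.17 (CLDN6), -0.14 (CCN1) and -0.42 (SNORD82). With 3 arrays many genes can share such a pattern.

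In the GO comparison only the sign of a small difference set PANK4 apart from PANK1, PANK2 and PANK3. PANK1, PANK2 and PANK3 phosphorylate pantothenate and are held back by acyl-CoA, whereas human PANK4 lacks kinase activity and carries a phosphatase domain that acts on phosphopantetheine. In the GO array the 3 kinases were slightly lower and PANK4 slightly higher than in the control. None reached 1.5-fold.

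PANK1, an isoform prominent in liver, read 8.49 with GO, 8.66 with rGO and 8.67 in the control, so GO stood apart on the low side by -0.18 while rGO differed by -0.02. PANK3, also expressed in liver, read 9.71, 9.88 and 9.95, with differences of -0.25 for GO and -0.08 for rGO. Of all genes past the filter, 46.7% had a larger absolute GO difference than PANK1 and 34% a larger one than PANK3, so both lay within the bulk of the genes.

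PANK2, the mitochondrial kinase whose loss causes a neurodegeneration with brain iron deposits, was read by 2 probe sets. The stronger one gave 8.79 with GO, 8.97 with rGO and 8.94 in the control, and the weaker one gave 7.24, 7.55 and 7.57. GO was the lowest array on both, by -0.14 and -0.33, and their mean gave -0.24. Of all genes past the filter, 55.1% had a larger absolute GO difference than the stronger probe set and 21.6% a larger one than the weaker. For rGO the probe sets gave 0.04 and -0.02, a spread around 0.

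PANK4 read 7.88 with GO, 7.81 with rGO and 7.54 in the control, which made the control the low array. The differences were 0.34 for GO (1.27-fold) and 0.27 for rGO (1.21-fold). Both draw on the same control value, so they are not separate observations. In the GO comparison 20.6% of genes had a larger absolute difference, in the narrower rGO comparison 3.97%, where 143 genes stood higher. Between GO and rGO PANK4 differed by 0.07.

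**Figure D3:**
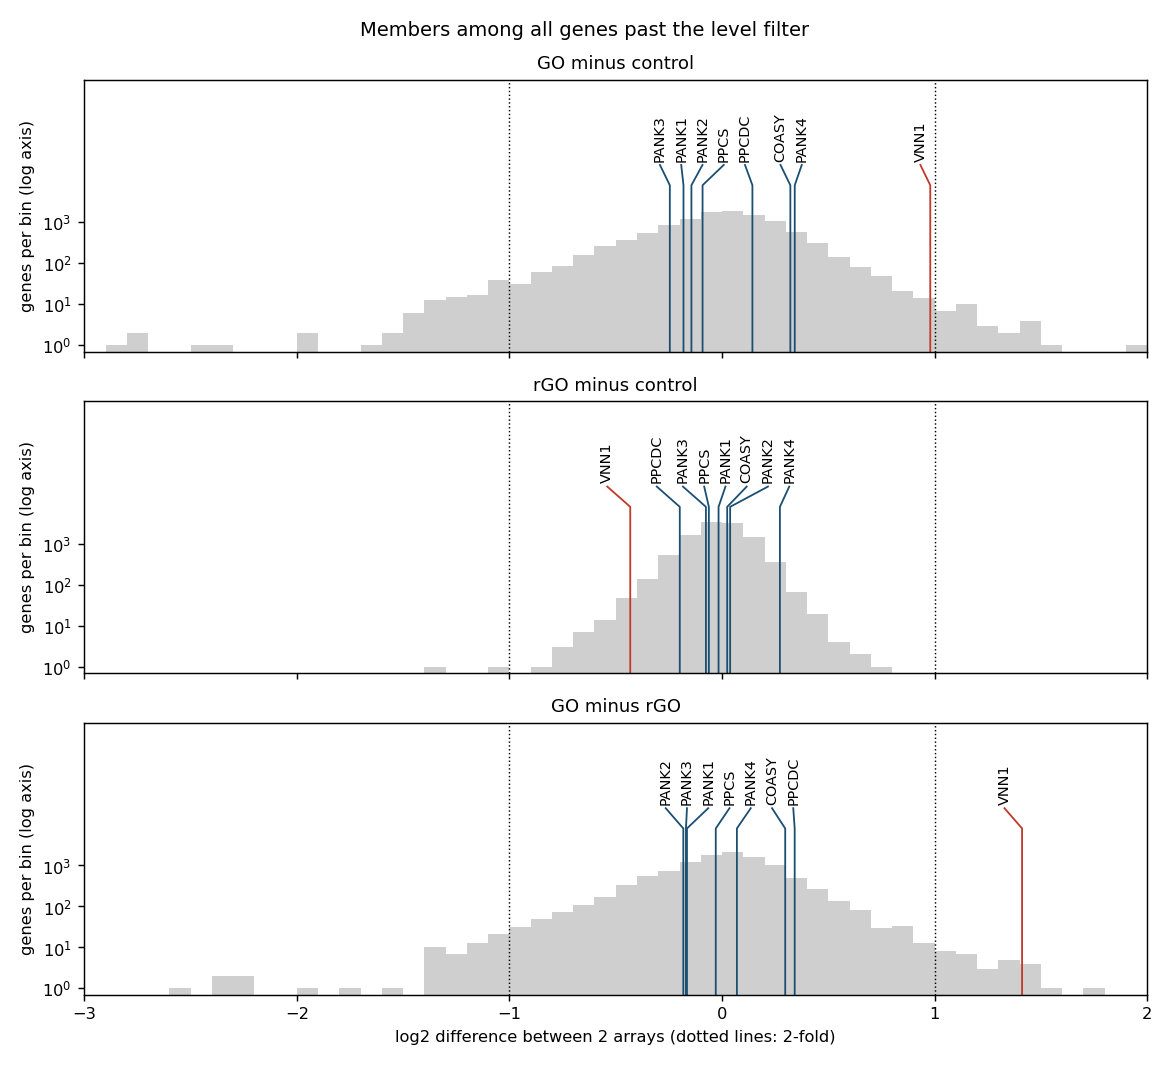
Number of genes past the level filter per bin of 0.1 (vertical log axis) against the log2 difference between 2 arrays (horizontal axis), with GO against control at the top, rGO against control in the middle and GO against rGO at the bottom; lines mark the 8 members past the filter and dotted lines a 2-fold difference. VNN1 (red) lies at 0.98, -0.43 and 1.41, in the tails of the 11050 genes, while the other members stay between -0.25 and 0.34.

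For the microRNA hairpins inside the kinase genes the readings were weak. MIR107, in PANK1, read 6.75 with GO, 6.71 with rGO and 6.75 in the control, differences of -0.0047 and -0.05. MIR103A2, in PANK2, read 4.67, 4.82 and 4.92, and MIR103A1, in PANK3, read 4.63, 4.66 and 5.45. The MIR103A1 differences of -0.82 and -0.80 rest on the same control value and on levels under the filter, and MIR103A2, which yields the identical mature microRNA, gave -0.25 and -0.10. A probe set on a hairpin can also read the host's intron, and none of these values measures the mature microRNA.

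Promoter windows of 300 bases around gene starts were available from RefSeq (GRCh38.p14) for 8 of the 10 genes, in 15 windows; VNN1 and VNN3 had none. The letters CCAAT, the core of the NF-Y site, GGGCGG, a GC box, and 4 other motifs were searched on both strands, counting overlaps. Windows of 1 gene can overlap and hold the same site, so matches are counted by gene, and the shares of all 35116 windows are given as background and not as a comparison. CCAAT occurred in 2 of the 8 genes, PANK1 and PANK2 (34.6% of all windows), and GGGCGG in 6, PPCDC and VNN2 having none (45%). AGGTCA, the half-site of nuclear receptors such as PPAR-alpha, occurred once each in COASY, PANK2 and PPCDC (13.8%). TATAAA occurred at 1 site, in PANK2 (11.5%), TGACTCA, an AP-1 site, at 1 site, in PPCDC (4.95%), and CACGTG, an E box, in 0 genes (7.26%). The windows of PANK1, PANK3 and PANK4 are shown, as kinases that lay on opposite sides of the control with GO, with CCAAT and GGGCGG in capitals on either strand:
PANK1 (chr10:89643867-89644166, minus strand): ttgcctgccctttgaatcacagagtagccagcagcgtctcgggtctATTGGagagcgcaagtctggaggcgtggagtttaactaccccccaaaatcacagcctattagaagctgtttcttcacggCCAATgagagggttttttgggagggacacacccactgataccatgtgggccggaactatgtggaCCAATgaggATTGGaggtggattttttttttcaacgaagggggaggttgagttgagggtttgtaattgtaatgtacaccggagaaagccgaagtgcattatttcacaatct
PANK3 (chr5:168579319-168579618, minus strand): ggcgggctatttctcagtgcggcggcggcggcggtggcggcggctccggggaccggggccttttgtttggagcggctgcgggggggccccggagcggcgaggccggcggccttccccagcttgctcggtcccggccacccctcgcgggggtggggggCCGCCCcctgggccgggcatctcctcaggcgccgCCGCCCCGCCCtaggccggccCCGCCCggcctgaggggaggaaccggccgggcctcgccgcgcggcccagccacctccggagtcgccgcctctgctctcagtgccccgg
PANK4 (chr1:2526547-2526846, minus strand): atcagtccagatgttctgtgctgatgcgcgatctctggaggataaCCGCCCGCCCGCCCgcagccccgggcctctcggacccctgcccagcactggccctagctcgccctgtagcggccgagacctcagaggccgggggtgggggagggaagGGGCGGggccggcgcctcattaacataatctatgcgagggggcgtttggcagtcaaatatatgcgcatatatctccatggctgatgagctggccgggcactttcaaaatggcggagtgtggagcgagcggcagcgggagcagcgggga
The PANK1 window held 4 CCAAT matches and 0 GC boxes. PANK3 and PANK4 each held 4 GC boxes and 0 CCAAT matches. PANK2, also lower with GO, had matches to both motifs and is not shown. Any link between these motifs and the differences was not tested. The second PANK1 window, at another start, held 0 CCAAT matches and 1 GC box.

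The later steps of coenzyme A synthesis moved little. COASY, the bifunctional enzyme that adds the nucleotide and the last phosphate, read 9.93 with GO, 9.63 with rGO and 9.61 in the control. GO was the high array by 0.32 (1.25-fold), a size that 23% of genes exceeded, and rGO differed by 0.02. PPCDC, the decarboxylase, read 6.98, 6.64 and 6.84, with rGO the low array and just under the filter level; its differences were 0.14 and -0.20. PPCS, which joins phosphopantothenate to cysteine, read 7.79, 7.82 and 7.88, with differences of -0.09 and -0.06, the smallest GO difference of the 8 genes.

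Over the 8 members past the filter the median difference was 0.03 for GO, with 4 above 0 and 4 below, and -0.04 for rGO, with 3 above and 5 below. Over all 11050 genes the medians were 0.01 and -0.01, with 51.1% and 46.8% of genes above 0. The members thus went both ways in each comparison. Absolute differences larger than the robust SD were those of VNN1, PANK3, PANK4 and COASY with GO and those of VNN1, PANK4 and PPCDC with rGO. The weaker PANK2 probe set also passed it with GO. Such sizes were common: 34% of all genes had a larger absolute GO difference than PANK3, and 11% a larger rGO difference than PPCDC. PANK3 only just passed 0.244, and it stood at -0.22 with quantile scaling and with median centring.

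Genes that feed, use or break down coenzyme A were set beside the members from lists. The carriers had medians of -0.06 with GO and 0.02 with rGO over 3 genes. SLC5A6, the importer of pantothenate and biotin, read 10.90 with GO, 10.70 with rGO and 10.63 in the control. The mitochondrial coenzyme A carrier SLC25A42 gave differences of -0.06 and -0.09, and SLC25A16 gave -0.29 and 0.02. Of the hydrolases, NUDT7 of peroxisomes read 8.94, 9.07 and 9.24, lowest with GO, whereas NUDT8 of mitochondria gave 0.08 and -0.05. ENPP1, a cell-surface phosphodiesterase that also cleaves extracellular coenzyme A, gave 0.33 and 0.07. NUDT19 was not analysed here.

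Of 5 genes past the filter that attach or carry the phosphopantetheine arm of coenzyme A, 4 were below 0 with GO. Their median was -0.37 with GO and -0.08 with rGO. Of all 11050 genes, 5400 were below 0 with GO, with a median of 0.01. AASDHPPT, the transferase that puts the arm on its acceptor proteins, read 9.01 with GO, 9.34 with rGO and 9.38 in the control. NDUFAB1, the mitochondrial acyl carrier protein, read 9.38, 9.65 and 9.77, and ALDH1L1, a folate enzyme that needs the arm, read 7.005, 7.54 and 7.61. GO was the lowest array for all 3, with differences of -0.37, -0.39 and -0.61. ALDH1L1 was the only gene of this list at 1.5-fold, a size that 4.23% of all genes reached in that direction. FASN, the fatty acid synthase, went the other way with 0.13 for GO and 0.24 for rGO, and ALDH1L2 lay under the filter.

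Cysteamine, the second product of pantetheinases, is oxidised by ADO to hypotaurine, which is also formed from cysteine through CDO1 and CSAD. Of 4 genes past the filter in this list 3 were below 0 with GO, against 5400 of all 11050 genes. Their median was -0.33, and with no filter the median over 7 genes was -0.24. CDO1 read 7.85 with GO, 8.48 with rGO and 8.75 in the control, a GO difference of -0.89 (0.538-fold) and an rGO difference of -0.26. It was the only gene of the list past the filter at 1.5-fold with GO, a size at which 4.23% of all genes were lower. ADO gave -0.24 and -0.17, and CSAD gave -0.43 and 0.03. The taurine importer SLC6A6 gave 0.18 and 0.15. BAAT, which joins bile acids to taurine or glycine through their coenzyme A esters, read 6.28, 5.20 and 4.73. The GO array was the high one for BAAT by 1.55, but all 3 values lay under the filter level, so its size is uncertain, as are those of FMO1 and GADL1 at 3.71 to 4.13.

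The other nitrilase family enzymes, relatives of the vanins, did not share the VNN1 pattern. BTD, the biotinidase, read 7.58 with GO, 7.79 with rGO and 7.90 in the control, and the omega-amidase NIT2 read 9.68, 10.21 and 10.37. Both were lowest with GO, by -0.32 and -0.69. Only NIT2 was at 1.5-fold, a size at which 4.23% of all genes were lower with GO. NIT1 gave 0.15 and 0.03, and UPB1 lay under the filter.

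Enzymes that load and unload coenzyme A had medians under 0 with GO, beside 0.01 over all genes. Of 12 acyl-CoA synthetases past the filter 9 were below 0, against 5400 of all 11050 genes. Their median was -0.24, with 0 at 1.5-fold, against 1.91% of all genes higher and 4.23% lower. The medium-chain ACSM3 stood at -0.55, the fatty acid transporter and very long-chain synthetase SLC27A2 at -0.44 and ACSS1, a mitochondrial acetate enzyme, at -0.37. ACSL3 and ACSM2B were not analysed here, and 5 more lay under the filter. With no filter the median over 17 genes was -0.14. Of 8 thioesterases past the filter 5 were below 0, beside the same 5400 of 11050 genes, with a median of -0.12. With no filter the thioesterase median over 11 genes was -0.05. ACOT13, a long-chain thioesterase, was the only one at 1.5-fold, a size at which 4.23% of all genes were lower and 1.91% higher, reading 10.34 with GO, 10.81 with rGO and 11.08 in the control (-0.74). ACOT11 and ACOT1 stood at -0.24 and -0.19. For rGO the medians of the synthetases and thioesterases were -0.04 and -0.10. With no filter the synthetase median for rGO turned to 0.02, so it has no settled direction.

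PPAR-alpha and its targets, the group to which VNN1 belongs by its known regulation in liver, went both ways with GO. Of 16 past the filter 7 were above 0 and 9 below, with a median of -0.03. Of all 11050 genes, 5643 were above 0 and 5400 below. Whether PPAR-alpha had a part in the VNN1 difference was not tested. CPT1A, the gate of mitochondrial fatty acid oxidation, read 9.33 with GO, 8.60 with rGO and 8.60 in the control. PLIN2, a lipid droplet coat protein, read 11.02, 10.38 and 10.43. The dehydrogenase ACADM read 10.40, 10.86 and 11.05, low with GO. CPT1A (0.73) was the only gene of the list at least 1.5-fold higher and ACADM (-0.65) the only one at least 1.5-fold lower, with PLIN2 at 0.58. Of all genes 1.91% were that much higher and 4.23% that much lower. For rGO the median was -0.02, with 4 above 0, 11 below and 1 at 0. Of all 11050 genes, 5175 were above 0 and 5866 below with rGO. PPARA itself, named after its values were seen, gave 0.07 and 0.06, and PDK4, CYP4A11 and FGF21 lay under the filter, while FABP1 was not analysed here.

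**Figure D4:**
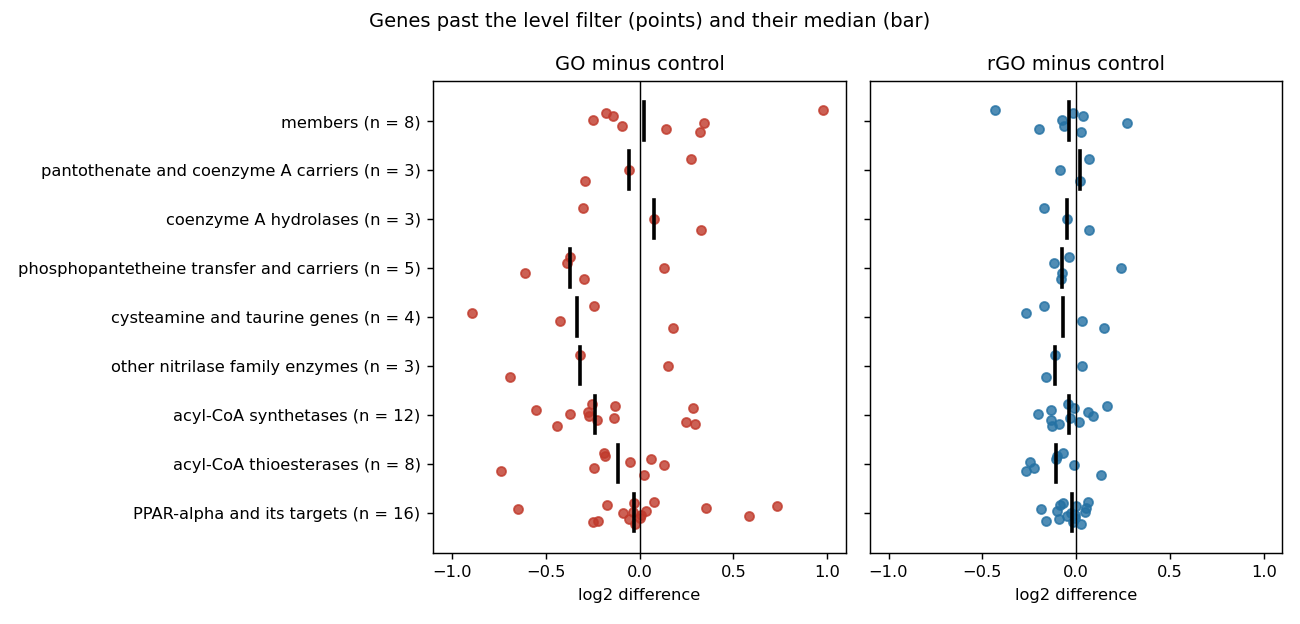
Log2 difference from the control array (horizontal axis) of each gene past the level filter (points) in the members and in 8 related gene lists (rows, with the number of genes), for GO on the left and rGO on the right; black bars are medians. The GO medians run from -0.37 (phosphopantetheine transfer and carriers) to 0.08 (coenzyme A hydrolases) and the rGO medians from -0.11 to 0.02.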

How the data were processed

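Total RNA of 3 HepG2 cultures was converted to biotin-labelled cDNA and hybridised to 1 array each, per the labels' protocols. The deposited values are log2 expression values of 33297 probe sets. RMA and MAS5 are named in the submitters' processing notes, with no role or version; the near-equal distributions look normalised between arrays. Background correction, genome build and annotation: not given in the sources used here. No coordinates other than those of RefSeq sequences are printed.

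Genes were named from the platform's annotation, which can be old: 19460 probe sets carried 1 symbol, 1754 several and 12083 none that was listed. Symbols not found were matched through RefSeq synonyms and Entrez IDs. A gene was represented by its probe set of highest mean, for members beside all others. Differences were taken between single arrays and counted at fixed sizes of 2-fold and 1.5-fold; with 1 array per group there is no test, and precision is limited by that number. Named genes were the members, the 3 genes of each list with the largest GO difference, any gene of lists of up to 8, the 5 genes nearest to VNN1 and its neighbours. Outside this rule, some cell type markers, PPARA and some list genes under the filter or not analysed were named too. The members, the 12 lists and the named genes were chosen with earlier results of these data known.

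The alternatives tried were 3 scalings (quantile, median, and loess with a span of 0.3), averaged probe sets per gene, 3 other filters (none, the 60th percentile, and the brighter array of a pair), and sizes of 1.5-fold and 3-fold. Python 3.11.15, numpy 2.4.6, pandas 2.3.3, statsmodels 0.14.6 and matplotlib 3.10.9 were used.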

Additional observations from a re-analysis of the deposited data

Results flagged for a closer look

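Members whose log2 differences from control had opposite signs for GO and rGO are given here; with 1 array per group the difference between the materials was not tested. VNN1 stood at 0.98 with GO and -0.43 with rGO. PPCDC stood at 0.14 with GO and -0.20 with rGO. The stronger probe set of PANK2 stood at -0.14 with GO and 0.038 with rGO, while its weaker probe set stood at -0.33 and -0.02. Among these 3 genes, only VNN1 had both values larger than the robust SD of its comparison, 0.244 and 0.116.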

How the results depend on the processing

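No paired analysis was possible because each group held 1 array, and for the same reason no array could be left out. Of 120 alternative values of the 10 members 119 moved by less than the probe set SD of their comparison. The exception was PANK2 with GO, at -0.24 with its probe sets averaged. Part of this count was fixed in advance. Averaging cannot change a member with 1 probe set, and median centring shifts all genes of a comparison by the same small amount. Across scalings VNN1 ranged from 0.98 to 1.003 (GO minus control), from -0.45 to -0.42 (rGO minus control) and from 1.40 to 1.45 (GO minus rGO), so only its side of the 2-fold line with GO depended on the setting (median centring). The 60th percentile filter, at log2 7.88, removed VNN1 and left 4 members. Counts of all genes moved with the size required. GO minus control gave 211 higher and 467 lower at 1.5-fold, and 1 and 8 at 3-fold, against 28 and 101 at 2-fold. GO minus rGO gave 201 higher and 354 lower at 1.5-fold, and 1 and 7 at 3-fold, against 29 and 59. rGO minus control gave 3 higher and 14 lower at 1.5-fold and 0 lower at 3-fold, against 0 and 2; its lower count was 4 with no filter and 1 with the 60th percentile filter. These follow from how many genes each setting admits. Of 180 alternative list medians 14 moved by more than the probe set SD, all with no filter, and 0 with the others. Here too, the uniform shift of median centring was too small to move any.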
